A study of Mus musculus with 2 samples.

Results

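Notch signalling genes were followed across cell classes of the mouse small-intestinal crypt. The set held 9 of the 31055 genes counted, chosen by name: the receptors Notch1 and Notch2, the ligands Dll1, Dll4 and Jag1, the receptor modifier Mfng, the Notch target Hes1, its relative Hes6, and Atoh1, the transcription factor of the secretory lineage. All 9 were found in the count table. Single-cell transcriptomes came from 1 gene expression library of sorted crypt epithelial cells, made with 10x Genomics 3′ droplet chemistry, and a second library held the counts of 4 hashtag antibodies. The labels name 1 mouse carrying ChgaCreER-tdTomato and Rosa26LSL-eYFP, in which tamoxifen switches on eYFP in cells that use the Chga promoter, an eYFP that their progeny inherit. The mouse received 1 mg of tamoxifen on each of 5 days. Both the eYFP+ sort and the bulk sort come from this treated genotype, so no group without the alleles or the drug was compared. No source used here links hashtags to sorts, so the pairs are called tags 1 and 2 and tags 3 and 4.

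Notch is a receptor that signals between touching cells. A ligand of the Delta or Jagged family on one cell leads to cleavage of the receptor on its neighbour, and the freed receptor fragment enters the nucleus, joins Rbpj and Maml proteins and switches on genes such as Hes1. In crypts, cells that receive the signal keep Hes1 on and Atoh1 off and become absorptive or stay stem cells, while cells that escape it turn on Atoh1, make Delta ligands and become secretory.

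Cells were placed in 6 classes by their own transcripts. The classes were 497 Lgr5 cells (3 or more UMIs, unique transcript counts, of the stem cell gene Lgr5), 47 Neurog3 cells (3 or more of the endocrine progenitor factor) and 366 Chga cells (20 or more of the enteroendocrine granule gene). The others were 129 goblet cells (Agr2, Fcgbp and Muc2 at 0.5% of UMIs or more), 42 Paneth cells (Lyz1, Defa24 and Defa30 at 5% or more) and 134 Alpi cells (2 or more UMIs of this enterocyte gene). Together they held 1111 of 2335 cells, and 100 cells were in more than 1 class, among them 20 of the 47 Neurog3 cells, which were also Chga cells. Of the 42 Paneth cells 14 were also Lgr5 cells, as were 9 Neurog3 and 28 Chga cells, and 6 Paneth cells were also goblet cells. Cells shared with the Lgr5 class count on both sides of a ratio to it. Only 22 Paneth and 16 Neurog3 cells were in exactly 1 class. The cut was not a gap in the data: 109 cells had exactly 3 Lgr5 UMIs and 154 had 2. Each class led in its own markers, with 6 stem genes together at 10386 CPM (counts scaled to a total of 1000000) in Lgr5 cells and 7 goblet genes at 64544 in goblet cells. The lists include the genes that define the classes, so each lead was partly fixed by the class rule. The same holds for lymphocytes, picked by 3 or more UMIs of Cd79a, Cd79b, Ms4a1, Cd3d, Cd3e and Cd3g together. The endothelial markers Cdh5 and Kdr were at 0 in all 6 classes, while Pecam1, the third of that list, reached 25.7 CPM in Chga cells; 7 lymphocyte genes summed to between 1.08 and 4.68 CPM, against 3138 in 133 lymphocytes.

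The library held 51238250 UMIs. Depth differed between classes, with medians of 24495 UMIs per cell in Lgr5, 13729 in Neurog3, 12142 in Chga, 21042 in goblet, 44397 in Paneth and 28428 in Alpi cells. Although 1 mouse is named, 1744 cells had 3 or more Xist UMIs and no Y-linked UMI, 252 had a Y-linked UMI and at most 2 Xist UMIs, and 339 had neither pattern; 88 of the Y-type cells were Chga cells. With 1 library no difference could be tested against replicates. Levels below are CPM of UMIs summed over a class with exact 95% Poisson intervals, and shares of cells carry exact Clopper-Pearson intervals; both cover counting error only. A gene is called past the fold when its class differs from the Lgr5 class by at least 1 on the log2 scale, with 10 CPM added to both, when the intervals are apart, and when both classes together hold at least 50 UMIs. Mfng missed that minimum in every comparison and the other 8 members met it.

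Of the 6 classes, goblet and Neurog3 cells had the highest levels of Dll1, Dll4 and Hes6. Their Dll4 levels overlapped with that of Chga cells, as did the Hes6 level of goblet cells. The 250 bases before the start of each of these genes are shown for the motifs they hold. Sequences are from RefSeq (GRCm38.p6), 5′ to 3′ on the strand of the gene; 7 of 9 members had an entry, and Hes1 and Mfng did not. Capitals mark CAGNTG on either strand, the core of the E-box that factors such as Atoh1 and Neurog3 bind.

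Dll1, chr17:15376933-15377182, minus strand: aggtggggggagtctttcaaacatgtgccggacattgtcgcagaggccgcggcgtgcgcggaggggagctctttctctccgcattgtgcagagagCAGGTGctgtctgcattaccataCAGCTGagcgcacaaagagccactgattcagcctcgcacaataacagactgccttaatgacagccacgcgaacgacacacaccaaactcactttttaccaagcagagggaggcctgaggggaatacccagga
Hes6, chr1:91414039-91414288, minus strand: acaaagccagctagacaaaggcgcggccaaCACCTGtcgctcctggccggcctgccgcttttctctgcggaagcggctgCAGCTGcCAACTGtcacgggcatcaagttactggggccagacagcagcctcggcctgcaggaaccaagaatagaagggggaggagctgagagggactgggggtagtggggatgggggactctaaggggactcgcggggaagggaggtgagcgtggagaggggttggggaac
Dll4, chr2:119325534-119325783, plus strand: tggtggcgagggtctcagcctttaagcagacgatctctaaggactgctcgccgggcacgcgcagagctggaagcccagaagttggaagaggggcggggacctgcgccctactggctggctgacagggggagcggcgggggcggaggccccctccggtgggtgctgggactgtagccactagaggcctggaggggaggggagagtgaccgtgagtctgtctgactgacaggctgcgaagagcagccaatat

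The Hes6 window held 3 matches, at 220, 171 and 164 bases before the start, and the Dll1 window held 2, at 155 and 132. A second Hes6 start held 1 match, a second Dll1 start held 0, Jag1 held 1, and Dll4, Atoh1, Notch1 and Notch2 held 0. The motif occurs in 44.8% of 32851 promoters of this length, so a match is common. TGGGAA, the core letters bound by Rbpj, searched on both strands, was in none of the 9 windows and in 21.6% of all promoters. These matches describe letters in a window and say nothing of binding.

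Notch1, the main receptor of crypt progenitors, was highest in Lgr5 cells. Its level was 52.3 CPM (48.7 to 56.2) there, 29.6 in Neurog3, 22.3 in Chga, 12.4 in goblet, 8.14 in Paneth and 7.58 in Alpi cells. Few cells carried much of it in 2 classes: 5 cells held 66.7% of the 33 Notch1 UMIs of Neurog3 cells and 73.3% of the 15 of Paneth cells. The Lgr5 level stood apart from all others, Chga stood apart from goblet, and goblet, Paneth and Alpi cells overlapped. Thinned to 10000 UMIs per cell, 38.7% of 481 Lgr5 cells had a Notch1 UMI, against 15.7% of 230 Chga and 7.55% of 106 goblet cells. Notch1 was past the fold in goblet (log2 ratio -1.48), Paneth (-1.78) and Alpi cells (-1.83), and short of it in Neurog3 (-0.66) and Chga cells (-0.95). Among goblet cells the ratio was -0.72 in tags 3 and 4 alone.

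Notch2, the second receptor, was found at low levels throughout. It stood at 7.61 CPM in Lgr5, 4.88 in Paneth, 4.48 in Neurog3, 3.53 in Chga, 1.56 in Alpi and 1.27 in goblet cells. No class stood apart from its neighbour in this order. Against Lgr5 cells directly, Chga (23 UMIs), Alpi (7) and goblet cells (4) were lower with intervals apart. No class was past the fold, but with 10 CPM added a Lgr5 level of 7.61 leaves no room for a fall of that size. Lymphocytes, which express Notch receptors themselves, had 18.3 CPM of Notch2 and 44.1 of Notch1.

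Dll1 was highest in goblet and Neurog3 cells and low in the other 4 classes. Its level was 92.0 CPM (81.8 to 103) in goblet and 76.2 (60.9 to 94.2) in Neurog3 cells, which overlapped. It was 18.4 in Chga, 13.3 in Lgr5, 9.14 in Alpi and 5.42 in Paneth cells, and Neurog3 stood apart from Chga. The ligand was past the fold in goblet (2.13) and Neurog3 cells (1.89) and not in Chga cells (0.29). Thinned cells with a Dll1 UMI made up 57.5% of goblet, 30.0% of Neurog3, 12.2% of Chga and 9.98% of Lgr5 cells.

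Dll4, the other Delta ligand of the crypt, was high in all 3 of goblet, Neurog3 and Chga cells. Its level was 43.2 CPM (36.2 to 51.1), 33.2 (23.4 to 45.7) and 32.1 (27.9 to 36.8), and these overlapped. Paneth cells had 10.8, Lgr5 cells 3.12 and Alpi cells 2.68, with Chga apart from Paneth and Paneth apart from Lgr5. The log2 ratio was 2.02 in goblet, 1.72 in Neurog3 and 1.68 in Chga cells, all past the fold. In Lgr5 cells 5 cells held 35.6% of the 45 Dll4 UMIs. Lymphocytes, at a median of 2779 UMIs, served as a rough background for both ligands. They were not free of epithelial transcripts, with 6 stem genes at 1362.5 CPM in sum. Whether these came from free RNA or from mixed barcodes was not tested. Thinned to 2000 UMIs, 0 of 108 had a Dll4 UMI, which allows up to 3.36%, against 6.74% of 356 Chga and 10.5% of 124 goblet cells; the 0.808% of Lgr5 cells lay within that limit, and the intervals of Neurog3 (8.51%, 2.37 to 20.4) and Paneth cells (4.76%, 0.582 to 16.2) reached below it. For Dll1 the shares were 1.85% of lymphocytes, 3.93% of Chga, 3.84% of Lgr5 and 20.2% of goblet cells, so only the goblet and Neurog3 (17.0%) intervals lay above that of lymphocytes.

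Jag1, the Jagged ligand, did not separate the classes. It ranged from 2.17 CPM in Paneth to 7.36 in Alpi cells, with 5.40 in both Lgr5 and goblet cells, and every neighbouring pair overlapped. Mfng, a glycosyltransferase that changes how Notch responds to its ligands, was sparse, with 34 UMIs in all cells. Of these, 9 fell in the 47 Neurog3 cells (8.07 CPM, 3.69 to 15.3) and 10 in the 366 Chga cells (1.54, 0.737 to 2.83), and these intervals were apart. Lgr5 cells held 5, goblet cells 1, and Paneth and Alpi cells 0. Lymphocytes held 8 (12.2 CPM), so that Neurog3 cells did not exceed them.

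Hes1, the target that represses Atoh1, was highest in Lgr5 cells, followed by Alpi cells. It was at 187 CPM (180.3 to 195) in Lgr5 and 129 (119 to 140.3) in Alpi cells, and at 86.9 in Neurog3, 80.8 in Chga, 80.6 in goblet and 59.1 in Paneth cells. The 5 cells with most held 53.6% of the 97 Hes1 UMIs of Neurog3 cells and 53.2% of the 109 of Paneth cells. Lgr5 stood apart from Alpi and Alpi from Neurog3, and the 4 secretory classes overlapped with their neighbours. Hes1 was past the fold in Neurog3 (-1.03), Chga (-1.12), goblet (-1.12) and Paneth cells (-1.51), and short of it in Alpi cells (-0.50). It was found in 74.2% of thinned Lgr5 cells, 59.5% of Alpi, 41.5% of goblet and 33.0% of Chga cells. Lymphocytes had 100.5 CPM, and at 2000 UMIs 13.9% of them had Hes1, with an interval of 7.99 to 21.9. The share was 8.87% of goblet, 8.43% of Chga, 7.14% of Paneth and 4.26% of Neurog3 cells, not above that level, so this comparison does not show expression there. Alpi cells (18.8%, 12.5 to 26.5) overlapped lymphocytes, and of the 6 classes only Lgr5 cells (30.5%, 26.5 to 34.8) lay above them. Lymphocytes were not an even background for Hes1, as 5 of them held 65.2% of its 66 UMIs. Chga cells without cell-cycle transcripts had 27.0 CPM (20.9 to 34.5), below the lymphocyte interval of 77.7 to 128. Goblet cells of tags 3 and 4 alone gave a ratio of -0.21 with 12 cells, and those of tags 1 and 2 gave -1.57.

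Hes6, a relative that can oppose Hes1, followed another order. It was at 147 CPM (125 to 171) in Neurog3, 114 in goblet, 99.9 in Chga, 84.5 in Lgr5, 34.6 in Alpi and 30.4 in Paneth cells. Chga stood apart from Lgr5, and Lgr5 from Alpi cells. It was past the fold only downwards, in Alpi (-1.08) and Paneth cells (-1.23), and its Neurog3 ratio of 0.73 fell short.

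Atoh1 was concentrated in goblet cells, at 131 CPM (118 to 144). Paneth cells had 28.7 (21.5 to 37.6), Neurog3 14.3, Chga 9.37, Lgr5 3.39 and Alpi 2.68. Goblet stood apart from Paneth, and Chga from Lgr5. The ratio was 3.39 in goblet and 1.53 in Paneth cells, both past the fold, against 0.86 in Neurog3 and 0.53 in Chga cells. Atoh1 was found in 61.3% of thinned goblet cells and 1.46% of Lgr5 cells. In Paneth cells it was found in 27.3% of 33 thinned cells, and the 5 cells with most held 39.6% of its UMIs. In the other 4 classes few cells carried it: 5 cells held 93.8% of the Atoh1 UMIs of Neurog3 cells, 57.4% of those of Chga cells and 46.9% of those of Lgr5 cells. A single cell held 10 of the 12 in Alpi cells.

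**Figure D1:**
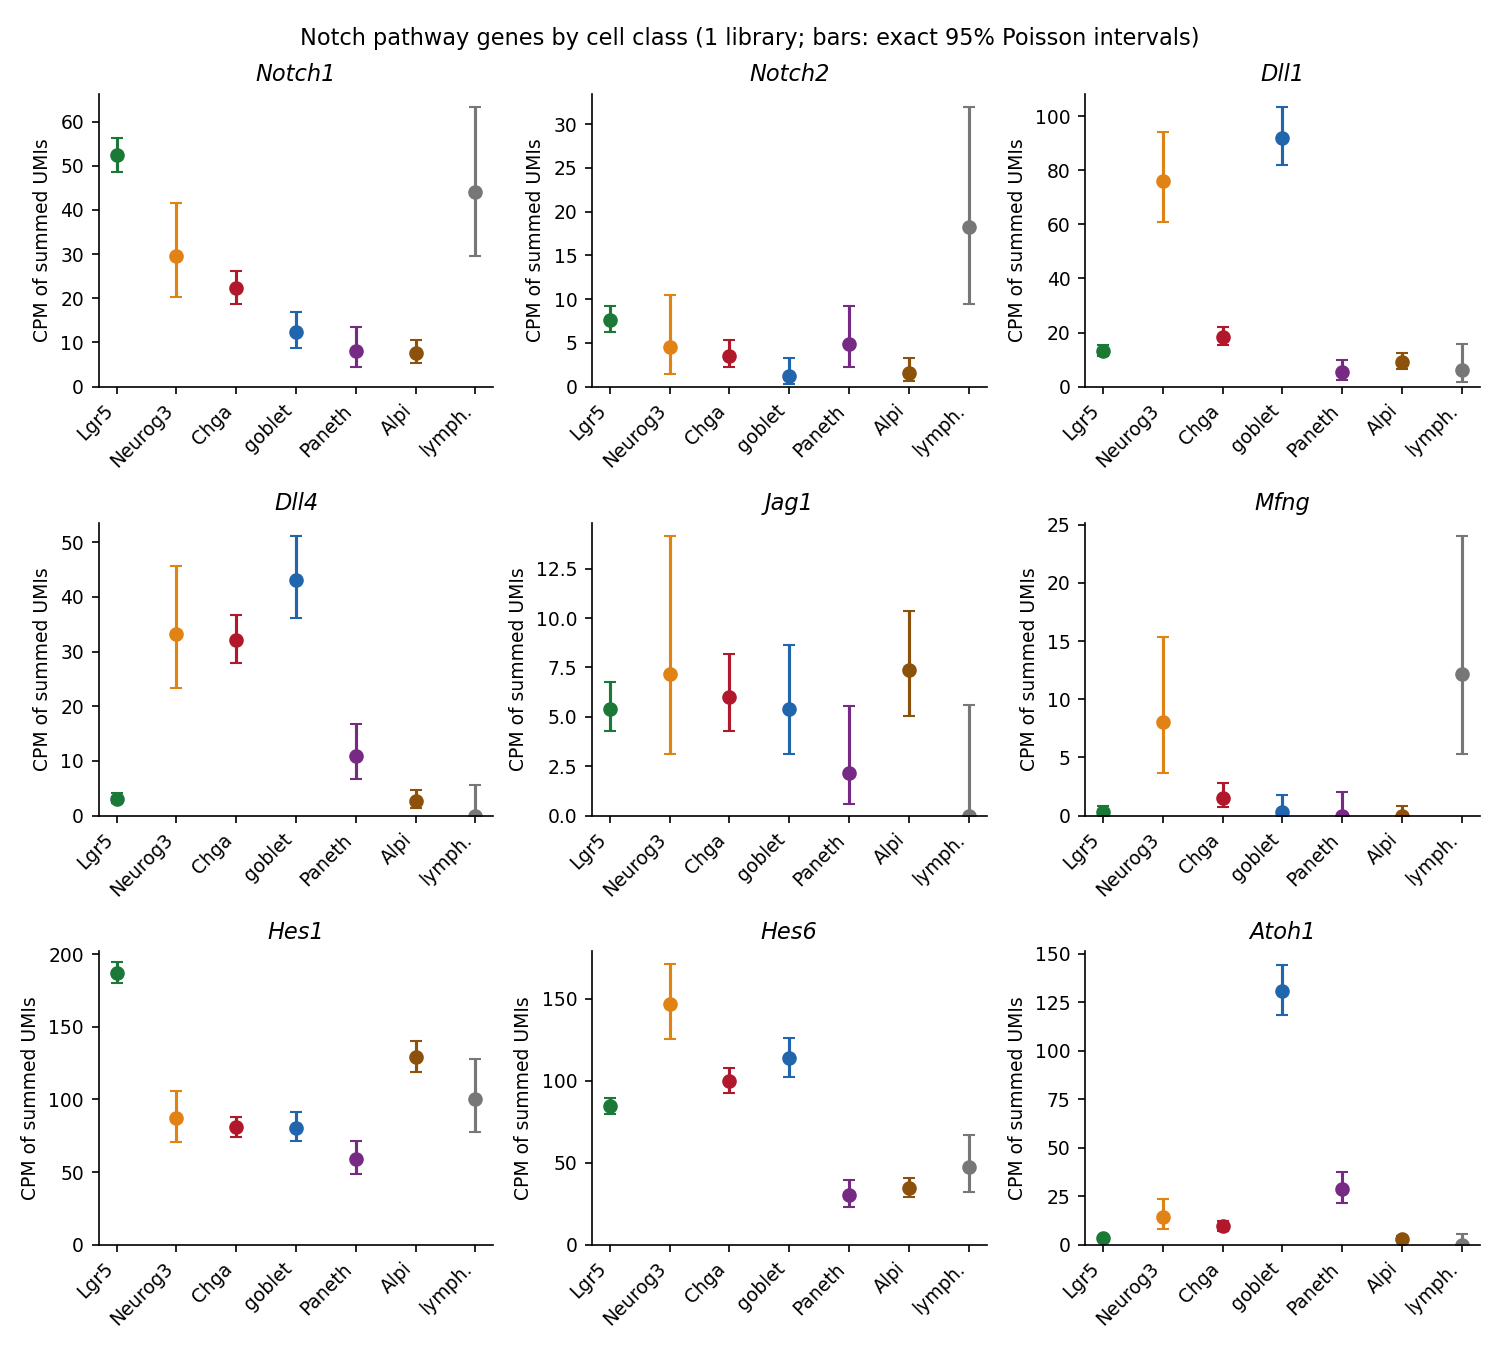
CPM of summed UMIs (y axis, from 0, separate scale per gene) of the 9 genes in the 6 classes and in lymphocytes (x axis); points are levels of 1 library and bars exact 95% Poisson intervals. Dll1 is high in Neurog3 and goblet cells, Dll4 also in Chga cells (32.1), Atoh1 in goblet cells (131), and Notch1 (52.3) and Hes1 (187) are highest of the 6 classes in Lgr5 cells.

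Counts of members past the fold are given beside those of all genes tested. Members were chosen with earlier results of these data known, so the counts describe the set and do not show enrichment. Notch2, Dll4, Jag1 and Atoh1 were under 10 CPM in Lgr5 cells and, with 10 CPM added, could not be called lower. In Neurog3 cells 2 of 8 were higher and 1 lower, against 4.31% higher and 0.682% lower of all genes. Chga cells had 1 higher and 1 lower, where the background was 8.88% and 1.13%. Goblet cells had 3 higher and 2 lower, against 4.52% and 1.7%. In Alpi cells 0 were higher and 2 lower, against 6.36% and 5.71%. The median log2 ratio of the 8 members was 0.45 in Neurog3, 0.14 in Chga, 0.19 in goblet and -0.39 in Alpi cells, beside 0.08, 0.12, -0.07 and -0.13 over all genes.

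Paneth cells need a second scale. They had 1 member higher and 3 lower, but 40.7% of all genes were lower and 1.04% higher, with a median of -0.86 over all genes. The 3 gate genes held 43.5% of the UMIs of this class, against 2.11% in Lgr5 cells. With those genes left out of every total, 13.2% of genes were lower and 1.91% higher, with a median of -0.50. On that scale Atoh1 (2.18) and Dll4 (1.15) were higher past the fold and Notch1 (-1.38) lower, while Hes1 (-0.81) and Hes6 (-0.59) fell short. Dll4 was then 19.2 CPM (11.7 to 29.7) in Paneth and 3.18 in Lgr5 cells, and Hes1 was 105 and 191.

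**Figure D2:**
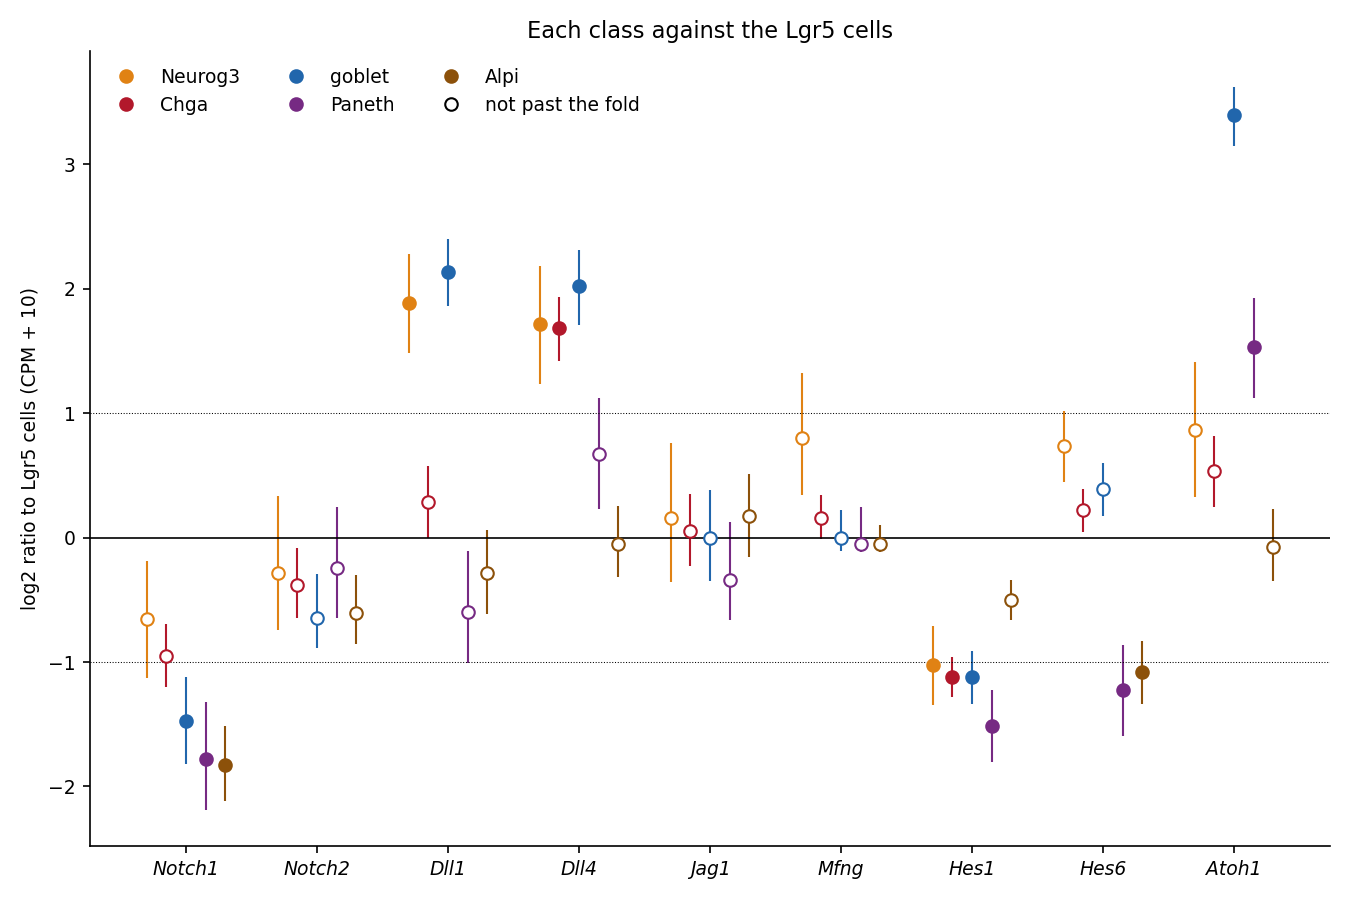
Log2 ratio of each class to the Lgr5 cells, with 10 CPM added (y axis), for the 9 genes (x axis); filled points are past the fold, open points are not, bars span the ratio's bounds from the Poisson intervals, and dotted lines mark 1 and -1. Atoh1 in goblet cells has the highest ratio shown (3.39) and Notch1 in Alpi cells the lowest (-1.83).

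Outside Paneth cells, most other pathway genes were not past the fold. Lists of 48 further genes were fixed by role, and 29 to 33 of them met the UMI minimum in each comparison. Past the fold were 6 higher (the gate gene left out) and 1 lower in Neurog3 cells, where 4.31% and 0.682% of all genes were. Chga cells had 5 and 1 (8.88% and 1.13% of all genes) and goblet cells 2 and 3 (4.52% and 1.7%). Paneth cells had 1 and 14 on the scale of all UMIs (1.04% and 40.7%), and Alpi cells 1 and 3 (6.36% and 5.71%). No gene of the cleavage machinery was past the fold outside Paneth cells; Psenen, a γ-secretase subunit and its most abundant member, was at 140.3 CPM in Lgr5 cells and 199 in Chga cells (0.47). In the nuclear complex Rbpj did not pass (-0.04 in Chga cells), and the coactivator Maml3 was higher in Chga (1.39) and Neurog3 cells (1.05). Among the other targets Olfm4, a stem cell gene and Notch target, was lower in all 5 classes, with ratios from -1.67 in Neurog3 to -5.14 in Alpi cells, while Nrarp, a feedback inhibitor, was not past the fold in Chga cells (-0.17). None of the other receptors and ligands was past the fold, and only 1 of the 6 met the minimum, in goblet cells.

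Factors downstream of the secretory choice gave most of the calls in Neurog3 and Chga cells. In Neurog3 cells 5 of 5 measured beside the gate gene were higher, including Insm1 (4.03) and Neurod1 (3.31). Chga cells had Neurod1 at 3.89 and Insm1 at 3.24. In goblet cells Spdef, the goblet and Paneth differentiation factor, was at 3.41 and Gfi1 at 1.33, and Sox4 was lower (-1.42). Neurl3, a ubiquitin ligase gene, was higher in Alpi cells (1.25), where Sox4 was lower (-2.55).

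Within the endocrine path, Dll1 was high in Neurog3 cells without much Chga and low in Chga cells without Neurog3. It was at 93.1 CPM (72.7 to 117) in 27 cells with Neurog3 alone, 39.7 (21.7 to 66.5) in 20 cells with both and 17.2 (14.1 to 20.8) in 346 cells with Chga alone. The first stood apart from both others, and the ratio of first to last was 1.92. Dll1 was the only member of 6 tested past the fold here, where 1.2% of genes were higher and 7.27% lower. Dll4 kept overlapping levels of 26.2, 48.2 and 31.2 CPM, so the Dll1 and Dll4 orders differed along this path. Hes6 was at 157, 125 and 98.5 CPM, with the first apart from the last. Hes1 was at 106, 45.3 and 82.9 CPM, Notch1 at 39.3, 8.50 and 23.1, and Mfng at 5.25, 14.2 and 0.812, with 4, 5 and 5 UMIs. The Hes1 ratio of first to last was 0.32. It ran from 0.26 to 1.15 when cells of several classes, with the highest doublet scores or of low depth were left out.

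The Hes1 level of Chga cells was higher in those with cell-cycle transcripts. Of 366 Chga cells, 81 had 3 or more UMIs of Mki67 and Top2a and 197 had 0. Hes1 was at 145 CPM (131 to 159.9) in the first and 27.0 (20.9 to 34.5) in the second, and Notch1 at 37.0 and 10.4. The Hes1 level of lymphocytes (100.5 CPM) lay between those of the cycling and non-cycling cells. Notch2, under the UMI minimum, was at 5.99 CPM (17 UMIs) and 0.832 (2 UMIs), with intervals apart. Dll4 went the other way, with 18.7 CPM (14.0 to 24.4) and 41.2 (33.5 to 50.2), as did Hes6 with 80.0 and 115. So 2 of 6 members tested were higher and 2 lower, but 18.1% of all genes were higher and 26.7% lower. The cycling cells were deeper, with a median of 32555 UMIs against 10095, and 76.5% of them were among the 173 cells with the highest doublet scores, against 7.61% of the others. Olfm4 was at 3084 against 828 CPM. In cells of 1 class without those scores, 14 cycling cells had 163 CPM of Hes1 (42 UMIs) and 166 non-cycling cells 24.6 (45 UMIs), and Notch1 was at 42.7 and 8.74. Dll4 was then at 46.6 and 38.8, with overlapping intervals, so its difference was not seen there. The part of doublets in these values was not tested otherwise.

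The split was also made in the other classes, and differences between classes were not tested. In Lgr5 cells Hes1 was at 189 CPM in cycling and 171 in non-cycling cells, and 0 of 6 members were apart, where 17.3% of genes were. In Neurog3 cells Hes1 was at 128 and 26.0 CPM and Hes6 at 89.1 and 208, in 11 and 26 cells, with 72.7% and 3.85% of them among the highest doublet scores; 29.9% of genes were apart. Both were in the direction seen in Chga cells, which hold 20 of the 47 Neurog3 cells. Neurog3 cells also had Dll1 at 31.0 and 89.6 CPM, under the UMI minimum and with intervals apart. Goblet cells had lower Dll4 (35.1 against 69.0 CPM) and Atoh1 (112 against 169.9) when cycling, 2 of 5 members, where 8.53% of genes were lower and 12.3% higher. Their Notch1, under the UMI minimum, was at 17.5 CPM (31 UMIs) when cycling and 1.28 (1 UMI, 0.0323 to 7.12) when not, with intervals apart. Goblet Hes1 was at 87.7 and 72.8 CPM, with overlapping intervals. In Alpi cells Atoh1 alone was apart, also under the minimum, and 1 cell held 10 of its 12 UMIs.

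**Figure D3:**
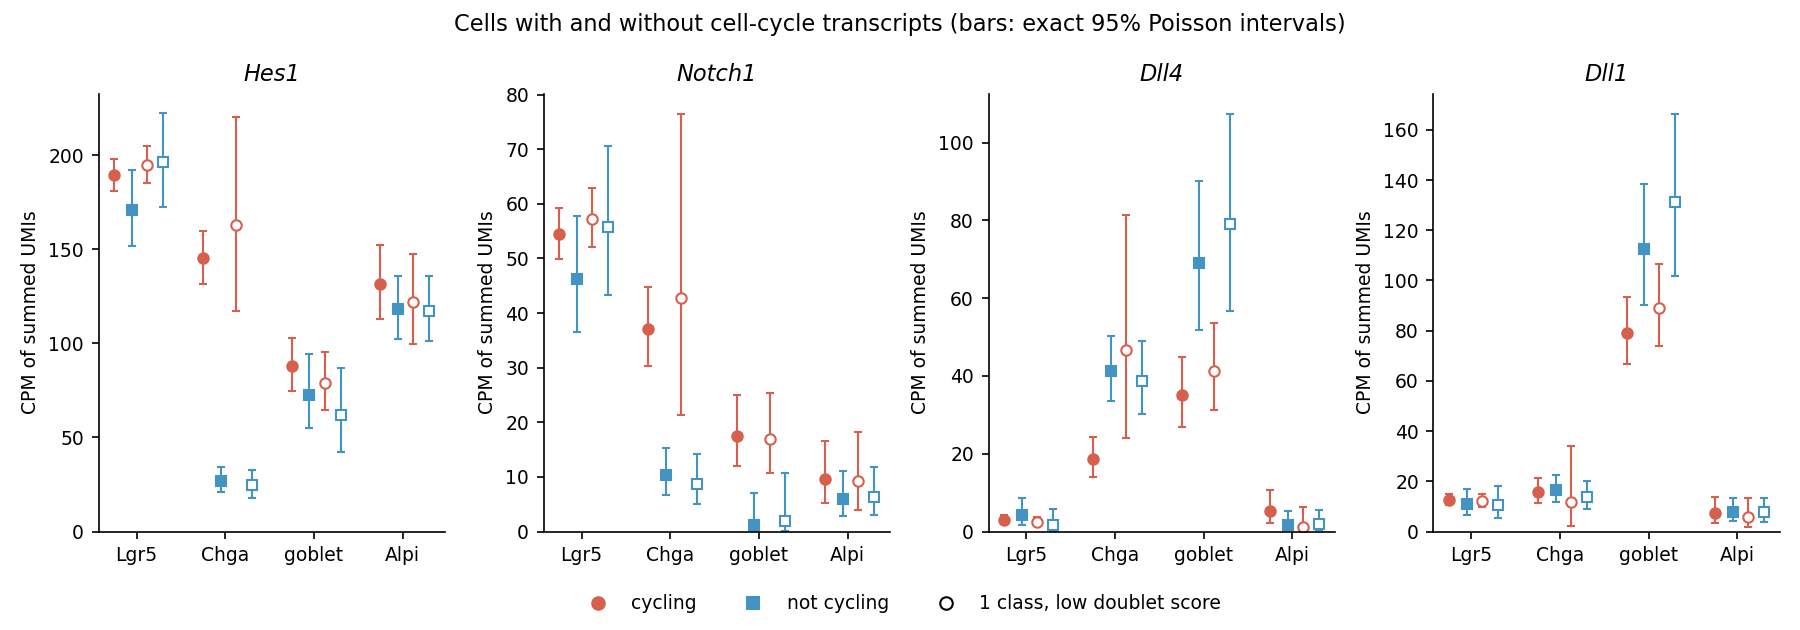
CPM of summed UMIs (y axis, from 0) of Hes1, Notch1, Dll4 and Dll1 in cycling (red circles) and non-cycling cells (blue squares) of 4 classes; open symbols are cells of 1 class without the highest doublet scores, and bars are exact 95% Poisson intervals. In Chga cells Hes1 is 145 against 27.0 CPM, and the open symbols keep that gap (163 against 24.6), while the Dll4 gap closes.

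Whether a cell with a ligand lacks Hes1 was asked cell by cell. Cells were thinned to 10000 UMIs, shallower ones were left out (186 of the 1111 class cells), and a cell was ligand-positive with at least 1 UMI of Dll1, Dll4 or Jag1. A single UMI can come from free RNA: at 2000 UMIs Dll1 outside goblet and Neurog3 cells, Dll4 outside goblet and Chga cells, Jag1 in every class and Hes1 outside Lgr5 cells had intervals that did not lie above that of lymphocytes, and the part of free RNA in these pairs was not tested. Over the 6 classes together Hes1 was found in 47.9% of 257 ligand-positive cells (41.6 to 54.2) and 61.4% of 668 others (57.6 to 65.1), which were apart. Over 20 random thinnings the difference had a median of -16.0 points and ran from -20.1 to -9.99, with the intervals apart in 20. Both a ligand and Hes1 were found in 123 cells. Over all 1740 thinned cells the shares were 55.9% and 63.2%, which overlapped in this draw. Over the 20 thinnings the difference in all cells had a median of -9.26 points (-12.7 to -4.71), with the intervals apart in 17. Without thinning, in cells of every depth, the sign turned, to 4.35 points.

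Inside the classes no such difference in shares was detectable at this depth. Hes1 was found in 82.3% of 79 ligand-positive and 72.6% of 402 other Lgr5 cells, in 29.2% of 96 and 35.8% of 134 Chga cells, and in 40% of 75 and 45.2% of 31 goblet cells. The values were 33.3% of 18 and 36.4% of 22 for Neurog3, 42.9% of 7 and 46.2% of 26 for Paneth, and 50% of 16 and 60.9% of 115 for Alpi cells. All 6 pairs overlapped. Single thinnings varied, and over 20 the median difference was 2.42 points in Lgr5 (-6.62 to 15.5), -6.60 in Chga (-13.7 to 0.0154), -0.28 in goblet (-13.5 to 19.1), 7.12 in Neurog3 and -11.3 in Alpi cells. The intervals were apart in 1 of 20 for Lgr5 cells, with Hes1 found more often beside a ligand, and in 0 for the other 5 classes. The 815 of the 1224 cells of no class that reached this depth gave a median of 3.05 points. Ligand-positive cells were 79 of 481 Lgr5, 96 of 230 Chga and 75 of 106 goblet cells, so the classes entered the pooled shares unequally.

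Split by ligand, only Dll4 had pooled shares that were apart. Over the 6 classes Hes1 was found in 32.7% of 107 Dll4-positive cells and 60.9% of others (apart), in 53.5% against 58.4% for Dll1 and in 61.5% against 57.4% for Jag1, both overlapping. For Dll4 the median over 20 thinnings was -28.6 points, apart in 20. In Chga cells it was -12.4, below 0 in 20 and apart in 0. It was 2.57 in goblet (below 0 in 8), -3.15 in Lgr5 and -5.0 in Neurog3 cells, and 7.29 in Alpi cells, where 13 thinnings gave a value, with intervals apart in 0 of each. Atoh1-positive cells had Hes1 in 50% against 58.4%, overlapping.

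Hes1 UMIs per thinned cell were fewer with more ligand UMIs when classes were pooled, in the 1 thinning used for levels. Means were 1.57 with no ligand UMI, 1.11 with 1 and 0.681 (0.522 to 0.873) with 2 or more. In Lgr5 cells they were 2.0, 1.90 and 2.0, and in goblet cells 0.806, 0.393 and 0.681, with overlapping intervals. Chga cells gave 0.806 (0.661 to 0.973), 0.545 and 0.367 (0.183 to 0.656), with the ends apart. Split by cycling, Chga cells with and without a ligand had Hes1 in 54.5% and 61.1% when cycling and in 20.5% and 17.9% when not, both pairs overlapping and of opposite order. Of the 22 cells with 4 or more ligand UMIs, 13 were goblet, 6 Neurog3, 3 Chga and 1 Lgr5 cells, with some in more than 1 class, and 2 were of no class.

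**Figure D4:**
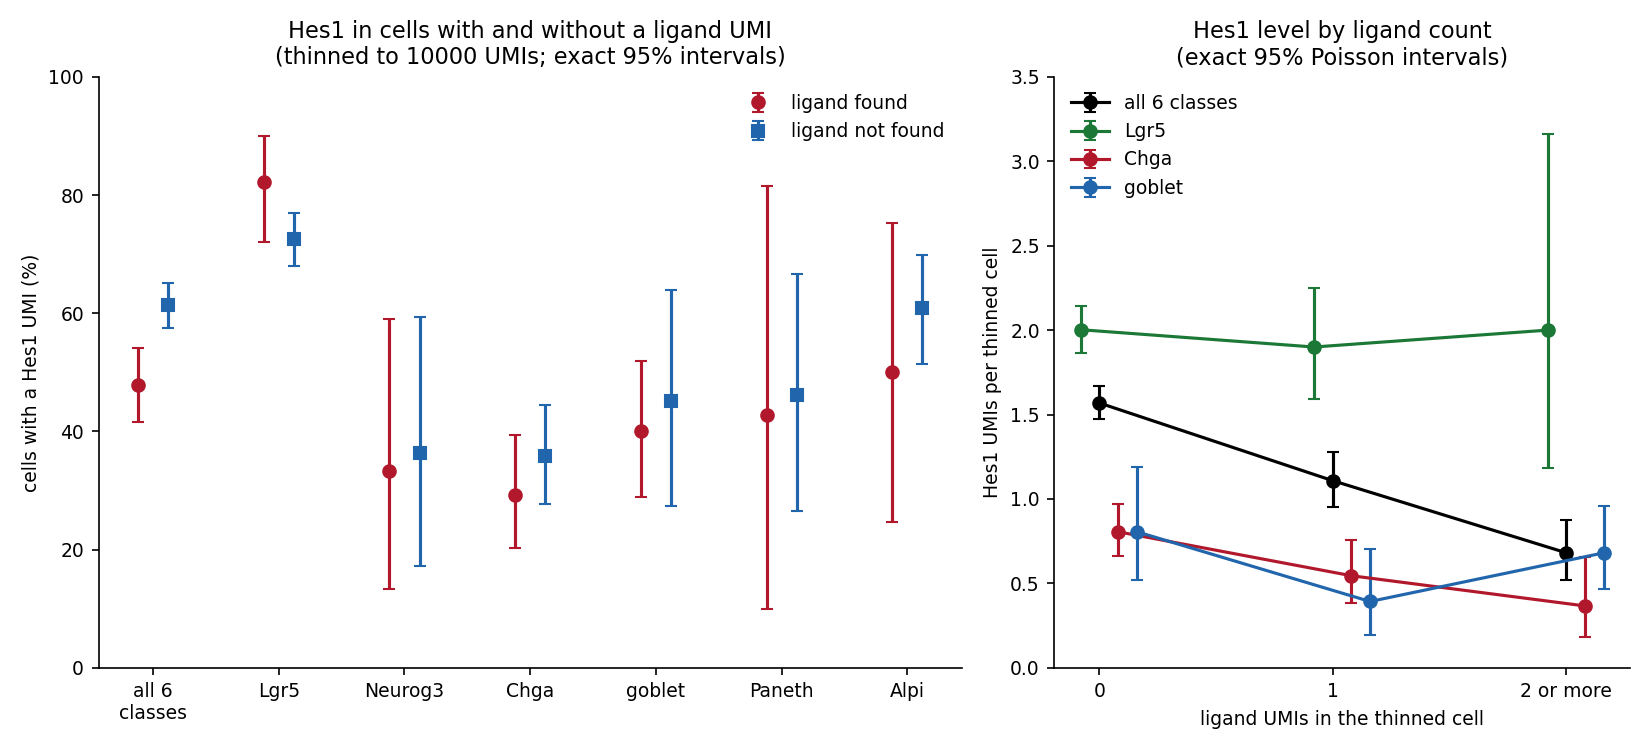
Left, percent of thinned cells with a Hes1 UMI (y axis, 0 to 100) among cells with (red circles) and without (blue squares) a ligand UMI, for the 6 classes together and each class (x axis), with exact 95% Clopper-Pearson intervals; right, Hes1 UMIs per thinned cell (y axis) by ligand UMIs (x axis), with exact Poisson intervals. The pair over all 6 classes is apart (47.9% and 61.4%) and the pairs within classes overlap.

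Over all cells, Dll4 and Atoh1 were found more often in cells with Dll1 than in cells without it. A Dll4 UMI was present in 18.0% of 228 Dll1-positive cells and 6.15% of 1512 others, and an Atoh1 UMI in 22.4% and 3.04%; both were apart. In goblet cells the Atoh1 shares were 65.6% and 55.6%, which overlapped. The Dll4 shares overlapped within each of the 6 classes, at 44.3% and 24.4% in goblet, 25% and 27.2% in Chga, 16.7% and 17.9% in Neurog3 and 2.08% and 1.39% in Lgr5 cells. Levels in thinned goblet cells were still apart for Atoh1, at 216 CPM with Dll1 and 104 without, and for Hes6, at 154 and 86.7. Goblet Hes1 was at 57.4 and 73.3, overlapping.

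Lgr5 cells were compared by eYFP transcript and by hashtag. In 64 Lgr5 cells with 3 or more YFP UMIs Hes1 was at 202 CPM and in 389 with none at 186, which overlapped, and 0 of the 6 members tested were apart where 7.59% of genes were. Dll4, under the UMI minimum, was at 7.24 CPM (14 UMIs) and 2.26 (25 UMIs), with intervals apart. Between tags, 157 Lgr5 cells of tags 1 and 2 had 201 CPM of Hes1 and 120 of tags 3 and 4 had 154, a log2 ratio of 0.36 with intervals apart, where 5.98% of genes were apart. Dll4, under the UMI minimum, was at 4.93 CPM (24 UMIs) and 1.15 (5 UMIs), also apart. Under a 10-fold tag rule the Hes1 ratio was 0.29 and the intervals overlapped. In Alpi cells only Hes1 and Hes6 met the minimum and neither was apart, where 6.85% of genes were.

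Cutting the tag ratio at its valley, which assigns every cell, allowed more classes. It put 74 Chga, 21 Neurog3 and 84 goblet cells in tags 3 and 4, against 9, 2 and 12 under the 3-fold rule. Most cells of tags 3 and 4 in these classes thus lacked a 3-fold excess of those tags. Chga cells also differed in depth, with medians of 11413 UMIs in tags 1 and 2 and 22667 in tags 3 and 4. In Lgr5 cells Hes1 (0.16) and Dll1 (0.36) were then apart, where 6.13% of genes were. Chga cells had lower Atoh1 in tags 1 and 2 (4.29 against 22.2 CPM, -1.17) and lower Dll1 (14.2 against 29.3, -0.70), where 20.3% of genes were apart. Hes1 was higher in tags 1 and 2 of Neurog3 cells (0.83, 26 and 21 cells), where 8.18% of genes were apart, and Hes6 of goblet cells (0.61), where 4.12% were. Neither Hes1 nor Hes6 was apart in Alpi cells, where 4.48% of genes were.

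The genes most like 4 members were listed by Pearson's r of log2(CPM + 10) over 8 groups, the 6 classes with tuft cells and lymphocytes, among 6979 genes. The groups share 1 library and some cells, so r is a description. The CPM used here are of all UMIs, a scale that lowers most genes in Paneth cells. All 5 genes nearest to Hes1 and all 5 nearest to Dll1 were lowest in Paneth cells. Values of r without the Paneth gate genes were not computed. Nearest to Hes1 were Ppp1r1b (0.95), Tinag (0.946), Tmem171 (0.929), Abhd14a (0.928) and Tnfsf13os (0.927). Nearest to Dll1 were Galk2 (0.965), Cd9 (0.947), Tsc22d1 (0.923), Nfxl1 (0.922) and Cog1 (0.909). Atoh1 was nearest to Creb3l4 (0.991), Ern2 (0.983), Tpsg1 (0.979), Fkbp11 (0.975) and Gcnt3 (0.973), and Hes6 to Rbm15b (0.980), Ddit4 (0.973), Limk2 (0.959), Cxxc1 (0.959) and Zfp266 (0.958). Between members r was 0.841 for Dll1 and Hes6, 0.809 for Dll1 and Dll4, and -0.591 for Hes1 and Atoh1.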

How the data were processed

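The deposited table holds raw counts of UMIs per gene and cell for the cells the authors kept, and a second deposited table holds raw hashtag counts. Cell Ranger and Seurat were used, per the submitters' processing notes, with versions not given in the sources used here. The notes name the human build GRCh38 while the gene identifiers are mouse Ensembl ones, so the aligned build is not settled here and coordinates are those of RefSeq promoters only. The members, classes and gene lists were chosen with earlier results of these data known. All 9 members were named in every class. Of each pathway list, members past the fold were named, up to 3 per comparison, with those of most UMIs, and the 5 genes of highest r were named for 4 members.

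UMIs were summed per class and scaled to CPM (python 3.11.15, numpy 2.4.6, scipy 1.17.1, pandas 2.3.3, matplotlib 3.10.9). With 1 library there was no test and no p-value. Tags were assigned at a 3-fold excess of 1 pair. For shares of cells, each cell was thinned at random to 10000 or 2000 UMIs. The thinning was redrawn after a first draw had been seen, when the gene list was extended, and 20 draws were then added. Scrublet (scanpy 1.11.5, expected rate 6%) called 2 of 2335 cells and so did not work as a caller; no cell was removed, and the 173 cells with the highest scores (7.41%, with ties) were left out as an alternative. The ratio and thinning code was tested on simulated data. Other alternatives changed class membership, thresholds, depth, pseudocount, tags, Xist and Y-linked type, the cells with most UMIs and the thinning depth. No per-sample column was left unused.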

Additional observations from a re-analysis of the deposited data

How the results depend on the processing

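The design has 1 library, so these alternatives vary the processing of the same cells. All 16 class ratios past the fold kept their direction in every alternative that gave a value. In all, 80 settings gave none because fewer than 10 cells remained, or fewer than 20 for ratios between tag pairs. The totals without the Paneth gate genes, the 20 thinnings and the joint filters on class and doublet score were chosen after seeing the data. Without the highest doublet scores the log2 ratio was 2.30 for Dll1 in Neurog3, 2.17 for Dll4 in Chga and -1.96 for Hes1 in Chga cells. In cells of exactly 1 class it was 2.42 for Dll1 in Neurog3, -1.44 for Hes1 in Chga and 3.74 for Atoh1 in goblet cells. With tags 1 and 2 only, Dll1 in Neurog3 was 1.34 and Hes1 in goblet cells -1.57; with tags 3 and 4 only, Hes1 in goblet cells was -0.21 and Atoh1 2.19. In Y-type cells Hes1 was -1.33 in Chga and -1.45 in goblet cells, and Atoh1 in goblet cells 3.71. As a mean over cells Hes1 was -1.71 in Chga and -1.45 in goblet cells. Without the 5 cells with most Hes1 UMIs, goblet Hes1 was -1.35. Doubled thresholds gave Atoh1 in goblet cells 3.77. A pseudocount of 1 CPM gave -2.64 for Notch1 in Alpi, 2.43 for Dll1 in Neurog3, 3.01 for Dll4 in Chga and 4.91 for Atoh1 in goblet cells. Without thinning, the Hes1 difference between ligand-positive and other cells reversed to 4.35 points over the 6 classes and was 36.7 in goblet cells. The cause of each move was not tested. Hes1 in Neurog3 cells went under the fold with doubled thresholds (-0.93), at 10000 UMIs or more (-0.96) and in tags 1 and 2 (-0.79), as did Hes1 in Chga cells at 10000 UMIs or more (-0.997), Notch1 in goblet cells of tags 3 and 4 (-0.72) and Hes6 in Paneth cells as a mean over cells (-0.53). No paired analysis was possible because 1 gene expression library was sequenced and its 2 sorts share it. Depth limits Mfng, Notch2 and Jag1 most, and comparisons within Neurog3 and Paneth cells.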
